A study of Mus musculus with 4 samples.

Results

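Reactive astrocyte genes are genes that astrocytes are known to express at higher levels when the tissue around them is injured or diseased. The 9 studied here were Gfap, Vim, Serpina3n, Cd44, Osmr, S100a6, Lgals3bp, Thbs4 and Cxcl10. They were taken by symbol from the 27998 genes of the deposited single-nucleus count matrices, and each symbol matched a single gene. Their levels were followed in 4 libraries of hippocampal nuclei from B6 mice aged 9 months. WT was made from 7 pooled hippocampi of wild-type mice. EKO was made from 7 pooled hippocampi of mice that carry the EKO genotype, which the labels do not spell out. P301S was made from 8 pooled hippocampi of mice labelled with P301S, the name of a mutation of human tau. P301S/EKO was made from 7 pooled hippocampi of mice that carry both. The title of the series places these mice in a study of tau-associated neurodegeneration and of apoE, and the labels name neither the tau line nor its promoter. The design mentions 6 genotypes, of which the other 2 were not analysed here. Each genotype had 1 library, so differences between genotypes had no replicate check, no p-value was computed, and every interval below is a 95% interval that covers counting error only.

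Apoe, which encodes the lipid carrier apolipoprotein E, was read to check the EKO label. In astrocyte-like nuclei its level on the counts-per-million-UMIs scale (CPM) was 19818 CPM in WT and 28294 CPM in P301S, against 177 CPM in EKO and 299 CPM in P301S/EKO. The low values in both EKO libraries go with their labels. The matrices held 3156 to 6767 barcodes per library, with a median of 1394 to 2152.5 unique molecular identifiers (UMIs, tags that count separate RNA molecules) per barcode. Pairs of libraries shared 19 to 69 barcodes. The lowest total of a deposited barcode differed by library, at 954 UMIs in WT, 1026 in P301S, 589 in EKO and 618 in P301S/EKO, so that the EKO libraries hold shallow nuclei that the other libraries lack.

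Astrocyte-like nuclei were a single cluster, drawn without the 9 genes and without Apoe. All 11 astrocyte markers were at least 1.5-fold higher in it than in the other nuclei, and its leading genes included Plpp3, Gja1, Gpr37l1, Aqp4 and Slc1a3. It held 286 WT nuclei, 204 EKO nuclei, 131 P301S nuclei and 205 nuclei of P301S/EKO. Their median depth was 1487.5, 819.5, 1806.0 and 986.0 UMIs in the same order. Levels are CPM, the UMIs of a gene scaled by all UMIs of the astrocyte-like nuclei of that library. Gene positions are those of GENCODE vM21 on mm10.

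Astrocytes take up glutamate and potassium, line blood vessels and supply neurons with lipid. When neurons degenerate they enlarge, build more intermediate filament and change what they secrete. Part of this programme runs through cytokine receptors that share the gp130 chain and activate the transcription factor STAT3, and another part through interferon signalling, of which Cxcl10 is a known target.

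The promoters of the 9 genes were searched for sequences that these pathways are known to use, because the genes are described below as a group and the letters show where such a sequence lies. RefSeq windows of the GRCm38.p6 build, from 250 bases before to 50 bases after the annotated start, were found for 9 of 9 genes. Both strands were searched for the STAT palindrome (TTC and GAA with any 3 bases between), its wider form (TTC and GAA with any 4 bases between), the AP-1 element TGANTCA and the interferon-response core (GAAA and GAAA with any 2 bases between). Matches could overlap. The windows with a match were those of Gfap, Cd44, Osmr and Cxcl10, shown 5′ to 3′ on the strand of the gene with the match in capitals. All 4 genes lie on the minus strand, in chr11:102897151-102897450 for Gfap, chr2:102901616-102901915 for Cd44, chr15:6874264-6874563 for Osmr and chr5:92348840-92349139 for Cxcl10.
Gfap: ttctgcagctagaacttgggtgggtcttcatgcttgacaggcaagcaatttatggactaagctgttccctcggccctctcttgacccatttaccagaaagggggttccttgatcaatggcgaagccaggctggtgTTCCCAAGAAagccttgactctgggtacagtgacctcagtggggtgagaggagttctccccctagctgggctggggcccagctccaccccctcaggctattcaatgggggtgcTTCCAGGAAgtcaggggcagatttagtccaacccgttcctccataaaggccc
Cd44: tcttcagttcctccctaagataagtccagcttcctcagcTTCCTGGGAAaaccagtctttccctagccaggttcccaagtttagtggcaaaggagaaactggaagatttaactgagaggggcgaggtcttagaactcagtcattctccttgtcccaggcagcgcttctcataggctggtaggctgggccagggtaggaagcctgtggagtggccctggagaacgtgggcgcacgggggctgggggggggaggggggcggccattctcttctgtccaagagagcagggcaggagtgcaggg
Osmr: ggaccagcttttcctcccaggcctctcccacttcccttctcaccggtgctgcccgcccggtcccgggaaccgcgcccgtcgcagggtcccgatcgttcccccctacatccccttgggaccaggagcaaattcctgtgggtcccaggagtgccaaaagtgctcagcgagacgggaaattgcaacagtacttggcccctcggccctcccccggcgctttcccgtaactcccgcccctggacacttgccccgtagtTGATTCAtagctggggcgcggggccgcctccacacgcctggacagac
Cxcl10: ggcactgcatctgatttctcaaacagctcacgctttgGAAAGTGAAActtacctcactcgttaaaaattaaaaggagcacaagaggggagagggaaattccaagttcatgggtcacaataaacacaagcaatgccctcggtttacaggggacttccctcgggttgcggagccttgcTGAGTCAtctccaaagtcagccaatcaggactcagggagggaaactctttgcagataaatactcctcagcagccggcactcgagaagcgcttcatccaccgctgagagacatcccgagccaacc
Gfap held both STAT forms, TTCCCAAGAA starting at base -115 and TTCCAGGAA starting at base -2 from the annotated start. Cd44 held the wider form, TTCCTGGGAA at base -211. Osmr held the AP-1 element TGATTCA at base 4. Cxcl10 held the interferon-response core GAAAGTGAAA at base -213 and the AP-1 element TGAGTCA at base -74. Such matches are common. Of 32851 RefSeq windows, 8.30% held the STAT palindrome, 6.95% its wider form, 7.81% the AP-1 element and 3.44% the interferon-response core, and 23.6% held at least 1 of them, beside 4 of the 9 genes. The windows of Vim, Serpina3n, S100a6, Lgals3bp and Thbs4 held none of these letters. A match describes the sequence and is not a site of binding. The RefSeq start lay downstream of the first base of the GENCODE span by 3712 bases for Gfap, 656 for Osmr, 384 for Vim, 133 for Lgals3bp and 12 for S100a6, so the search covers the RefSeq start alone.

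Gfap encodes glial fibrillary acidic protein, the intermediate filament by which reactive astrocytes are usually recognised (ENSMUSG00000020932, mm10 chr11:102887336-102900912, minus strand). In astrocyte-like nuclei Gfap was at 486 CPM in WT (428 to 549, 257 UMIs), 919 CPM in EKO (203 UMIs), 3794 CPM in P301S (3576 to 4023, 1123 UMIs) and 2422 CPM in P301S/EKO (2234 to 2623, 608 UMIs). Both libraries with the P301S label were above both libraries without it, and P301S was the highest. The 9 genes together gave 688 CPM in WT and 5666 CPM in P301S, and Gfap supplied 67.0% to 72.2% of their UMIs in each of the 4 libraries. Without thinning, 51 of 131 P301S nuclei held 10 or more Gfap UMIs, against 18 of 205 in P301S/EKO, 5 of 204 in EKO and 3 of 286 in WT, counts that move with depth as well as with the level.

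Vim encodes vimentin, the filament protein that assembles with GFAP and is also the main filament of endothelial cells (ENSMUSG00000026728, mm10 chr2:13573927-13582826, plus strand). Its level in astrocyte-like nuclei was 79.4 CPM in WT (57.2 to 107, 42 UMIs), 154 CPM in EKO (34 UMIs), 828 CPM in P301S (727 to 938, 245 UMIs) and 398 CPM in P301S/EKO (324 to 485, 100 UMIs). The order of the libraries was that of Gfap.

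Serpina3n encodes a secreted serine protease inhibitor (ENSMUSG00000021091, mm10 chr12:104406729-104414329, plus strand). It was nearly absent from astrocyte-like nuclei of the libraries without P301S, with 2 UMIs in WT (3.78 CPM) and 1 UMI in EKO (4.53 CPM). P301S held 61 UMIs (206 CPM, 158 to 265) and P301S/EKO 30 UMIs (119.5 CPM, 80.6 to 171). Serpina3n belongs to a family of near-identical copies, so some of its reads may not have been assigned to it. Of 10 such family genes looked up, 9 were in the files and none reached 20 UMIs over the libraries of any comparison in astrocyte-like nuclei.

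Cd44 encodes the cell surface receptor for hyaluronan and osteopontin (ENSMUSG00000005087, mm10 chr2:102811141-102901665, minus strand). It had 3 UMIs in WT astrocyte-like nuclei (5.67 CPM), 0 in EKO, 31 in P301S (105 CPM, 71.2 to 149) and 6 in P301S/EKO (23.9 CPM, 8.77 to 52.0). The count of 0 in EKO allows a level of up to 13.6 CPM. Osmr encodes the oncostatin M receptor, the subunit that pairs with gp130 (ENSMUSG00000022146, mm10 chr15:6813577-6874969, minus strand). It had 6 UMIs in WT (11.3 CPM), 2 in EKO (9.05 CPM), 39 in P301S (132 CPM, 93.7 to 180.1) and 8 in P301S/EKO (31.9 CPM, 13.8 to 62.8). For both receptors P301S stood above the other 3 libraries with no overlap of the intervals.

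S100a6 encodes calcyclin, a small calcium-binding protein (ENSMUSG00000001025, mm10 chr3:90612882-90624181, plus strand). Its level was 43.5 CPM in WT (23 UMIs), 58.9 CPM in EKO (13 UMIs), 226 CPM in P301S (175 to 287, 67 UMIs) and 215 CPM in P301S/EKO (162 to 281, 54 UMIs). Lgals3bp encodes a secreted glycoprotein that binds galectin-3 and is induced by interferon (ENSMUSG00000033880, mm10 chr11:118392751-118402092, minus strand). Its level was 26.5 CPM in WT (14 UMIs), 40.7 CPM in EKO (9 UMIs), 166 CPM in P301S (122 to 219, 49 UMIs) and 167 CPM in P301S/EKO (121 to 226, 42 UMIs). For both genes the P301S and P301S/EKO levels lay within each other's intervals.

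Thbs4 encodes thrombospondin 4, a secreted matrix protein that astrocytes release (ENSMUSG00000021702, mm10 chr13:92751590-92794818, minus strand). Its level was 32.1 CPM in WT (18.7 to 51.5, 17 UMIs), 81.5 CPM in EKO (48.3 to 129, 18 UMIs), 142 CPM in P301S (42 UMIs) and 99.6 CPM in P301S/EKO (64.5 to 147, 25 UMIs). The EKO interval overlapped those of the other 3 libraries. Cxcl10 encodes the chemokine that attracts T cells through the receptor CXCR3 (ENSMUSG00000034855, mm10 chr5:92346638-92348889, minus strand). It had 0 UMIs in WT astrocyte-like nuclei, 1 in EKO, 20 in P301S (67.6 CPM, 41.3 to 104) and 3 in P301S/EKO (12 CPM, 2.46 to 34.9). The 20 UMIs of P301S came from 8 nuclei, and the count of 0 in WT allows up to 5.67 CPM.

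**Figure D1:**
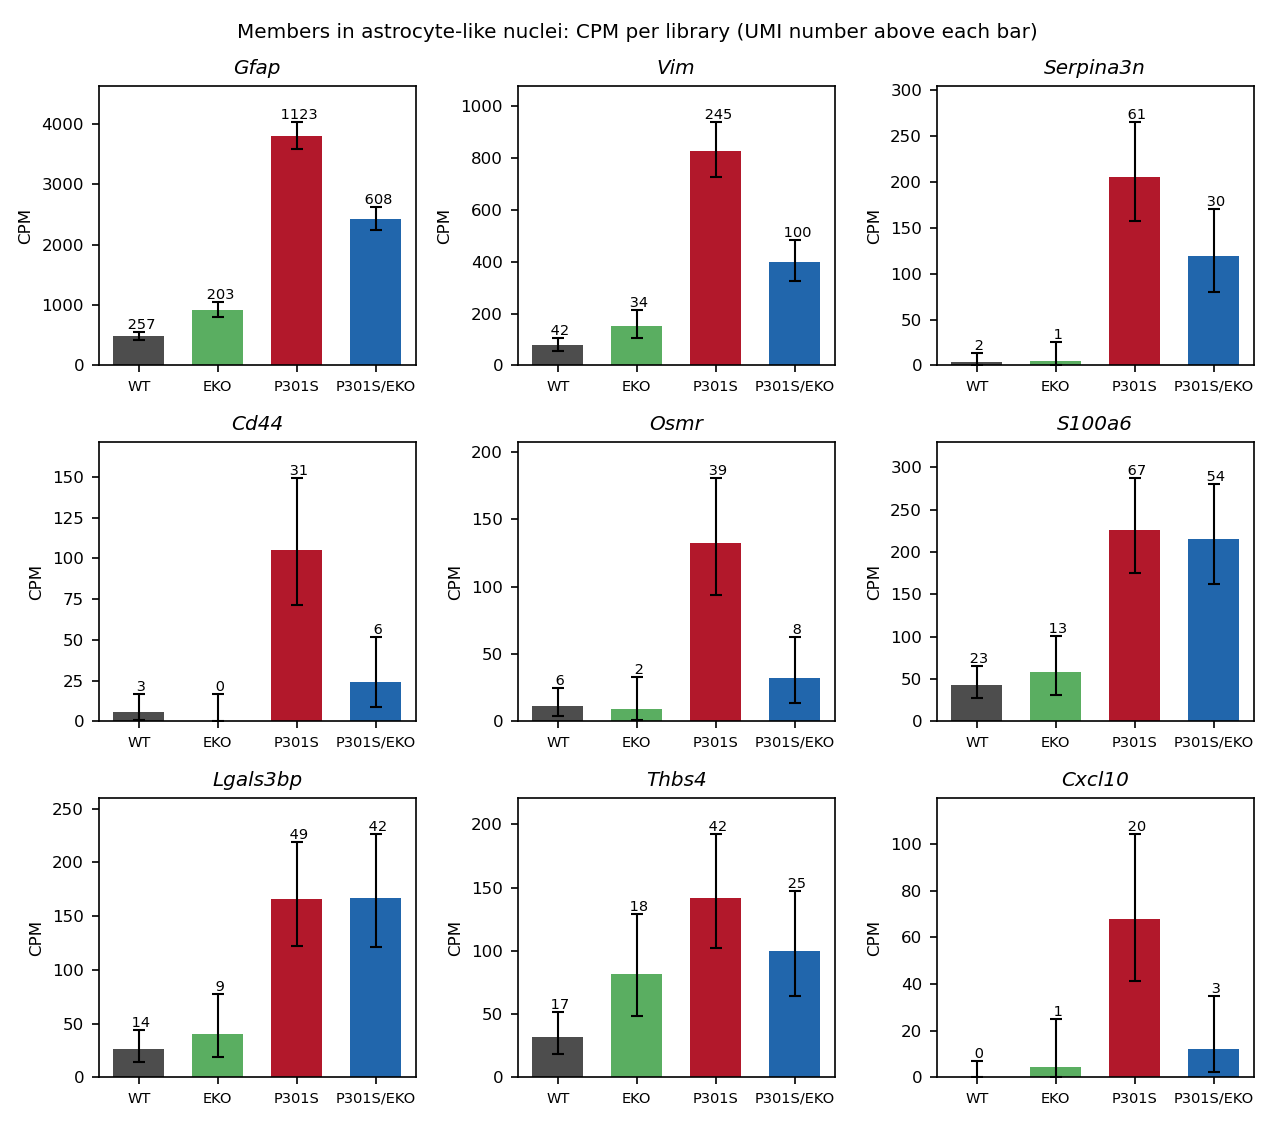
CPM (vertical axis, each panel with its own scale from 0) of the 9 genes in astrocyte-like nuclei of the 4 libraries; bars are 1 library each, error bars are exact 95% Poisson intervals and the number above a bar is its UMI count. P301S is the highest bar for 8 genes, with Gfap at 3794 CPM and Vim at 828 CPM, and for Lgals3bp P301S (166 CPM) and P301S/EKO (167 CPM) are level.

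The comparison of P301S with WT asks how the P301S genotype goes with these genes where Apoe is intact. All 9 genes were at least 1.5-fold higher in P301S, beside 24.8% of the 6500 genes with at least 20 UMIs over both libraries. Gfap was 7.81-fold higher (6.81 to 8.98), Vim 10.4-fold (7.49 to 14.8), Osmr 11.6-fold (4.88 to 33.6), Lgals3bp 6.26-fold (3.40 to 12.3), S100a6 5.21-fold (3.20 to 8.76) and Thbs4 4.42-fold (2.46 to 8.27). Serpina3n (54.5-fold, 14.5 to 460.3) and Cd44 (18.5-fold, 5.76 to 94.4) rest on 2 and 3 UMIs in WT. Cxcl10 was at least 11.9-fold higher, taking 3 counts in WT as the floor. Serpina3n, Cd44, Osmr and Cxcl10 reached 20 UMIs only through P301S and then had to be higher. The count of higher genes, the median and the places below therefore describe the genes that could be measured. With the wider marker gate described below, the log2 ratio of Serpina3n was 3.75 in place of 5.38. The median log2 ratio of the 9 genes was 3.36, also with Cxcl10 at its bound, beside 0.12 over all genes compared. Ordered from the highest ratio, the 9 genes held places 2 to 75 of 6500. Those not measured only through P301S held places 20 (Vim) to 75 (Thbs4).

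Microglial and other RNA differed between these nuclei as well. The 12 microglia markers summed to 297 CPM in WT and 222 CPM in EKO, against 797 CPM in P301S and 470.1 CPM in P301S/EKO. None of the 12 was at 0 in WT or P301S, 4 were at 0 in EKO and 2 in P301S/EKO. In the microglia-like cluster the same markers summed to 3618 to 7286 CPM. The 8 choroid plexus markers summed to 414, 22.6, 1652 and 594 CPM (same library order), of which Ttr supplied 393, 0, 1605 and 574 CPM. The 10 oligodendrocyte markers summed to 2639, 1521, 2750.4 and 3626 CPM and those of pericytes and mural cells to 164, 380.3, 348 and 319 CPM. Macrophage markers were at 1.89 CPM in WT and 30.4 CPM in P301S, and at 0 in both EKO libraries. The 10 neuronal markers summed to 13293 CPM in WT against 5773 to 6734 CPM in the other 3 libraries, and 59 of 286 WT nuclei were mixed, that is, their share of neuronal marker UMIs was over 50% of the CA1 neuron median, against 3 to 10 nuclei in each other library. The part of this RNA in the ratios was not tested beyond the following values. In astrocyte-like nuclei with no microglia marker UMI, 205 in WT and 34 in P301S, Gfap was higher in P301S by 2.69 on the log2 scale and Vim by 2.67. There 5 of the 9 genes had 20 UMIs, and these 5 were at least 1.5-fold higher, beside 22.0% of the genes compared there. A gene with few WT UMIs could reach 20 there only by being high in P301S. The count therefore describes the genes that could be measured. With the mixed nuclei left out, the log2 ratio of Gfap was 2.65, beside 2.96 in all astrocyte-like nuclei.

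The comparison of P301S/EKO with EKO asks the same where Apoe is nearly absent. Of 6 genes with enough UMIs, 5 were at least 1.5-fold higher in P301S/EKO, beside 18.4% of 4106 genes. Gfap was 2.64-fold higher (2.25 to 3.11), Vim 2.59-fold (1.74 to 3.94), S100a6 3.66-fold (1.97 to 7.30) and Lgals3bp 4.11-fold (1.97 to 9.60). Serpina3n was 26.4-fold higher with 1 UMI in EKO (4.39 to 1077). Thbs4 was the exception at 1.22-fold (0.641 to 2.38), an interval that includes no difference. Cd44, Osmr and Cxcl10 had 6, 8 and 3 UMIs in P301S/EKO against 0, 2 and 1 in EKO, too few for a ratio. Serpina3n and Lgals3bp reached 20 UMIs only through P301S/EKO, so the count is a description of the genes that could be measured. The median log2 ratio of the 6 genes was 1.61, beside 0.02 over all genes compared. In nuclei without a microglia marker UMI S100a6 was at 1.96-fold in place of 3.66, with an interval that includes no difference (lower bound 0.877). This comparison shares no library with that of P301S and WT. The ratio of Gfap was 7.81 (6.81 to 8.98) there and 2.64 (2.25 to 3.11) here, and the ratio of Vim was 10.4 (7.49 to 14.8) and 2.59 (1.74 to 3.94). Whether the ratios differ beyond the spread between animals was not tested, since each genotype had 1 library.

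The comparison of P301S/EKO with P301S bears on Apoe loss in the presence of P301S. It shares a library with each comparison above, as does that of EKO with WT below, so they are not independent. In astrocyte-like nuclei 6 of 9 genes were at least 1.5-fold lower in P301S/EKO, beside 19.7% of 4905 genes, and 0 were 1.5-fold higher, beside 12.1%. Of the 6, Cd44, Osmr and Cxcl10 reached 20 UMIs only through P301S and then had to be lower. The count therefore describes the genes that could be measured. Cxcl10 was 5.65-fold lower (1.68 to 29.7), Cd44 4.38-fold (1.80 to 12.8), Osmr 4.13-fold (1.90 to 10.2), Vim 2.08-fold (1.64 to 2.65), Serpina3n 1.72-fold (1.10 to 2.77) and Gfap 1.57-fold (1.42 to 1.73). S100a6 was 1.05-fold lower (0.724 to 1.53) and Thbs4 1.42-fold lower (0.848 to 2.44), while the ratio of Lgals3bp was 1.01 (0.653 to 1.56). The intervals of these 3 genes include no difference. In nuclei without a microglia marker UMI, 34 in P301S and 132 in P301S/EKO, these 3 genes did pass 1.5-fold: S100a6 was 2.91-fold lower (1.46 to 5.83), Thbs4 1.80-fold (0.755 to 4.13) and Lgals3bp 1.74-fold (0.866 to 3.42). Gfap was 1.43-fold lower there (1.18 to 1.73) and Serpina3n 4.28-fold (1.92 to 10.0), and under median-of-ratios scaling the log2 ratio of Gfap was -0.55, short of 1.5-fold. The median log2 ratio of the 9 genes was -0.78, beside -0.06 over all genes compared.

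Depth moved with this comparison. Of the P301S/EKO astrocyte-like nuclei, 107 of 205 had under 1000 UMIs, against none of 131 in P301S. The shallow P301S/EKO nuclei had Gfap at 1344 CPM (1108 to 1616), the 98 deeper ones at 2965 CPM. Among nuclei of at least 1000 UMIs, the ratio of Gfap was 0.782 (0.702 to 0.869) and that of Serpina3n 0.727 (0.437 to 1.17), both short of a 1.5-fold difference. Vim was 1.61-fold lower (1.25 to 2.08), Cd44 2.91-fold (1.20 to 8.54), Osmr 3.67-fold (1.54 to 10.6) and Cxcl10 5.64-fold (1.37 to 49.8, from 2 UMIs). So 4 of 9 genes passed among the deeper nuclei, beside 19.6% of all genes compared there. Of these 4, Cd44, Osmr and Cxcl10 reached 20 UMIs there only through P301S and then had to be lower. This count too describes the genes that could be measured. The median log2 ratio among the deeper nuclei was -0.46. With equal weight per nucleus in place of per UMI it was -1.41. Cd44, Osmr and Cxcl10 had larger ratios than Gfap and Vim in both sets of nuclei, but their intervals overlapped that of Vim in both. Each receptor had 6 to 8 UMIs in P301S/EKO. In both sets of nuclei these 3 genes reached 20 UMIs only through P301S, which favours a large difference. Their order against the filaments is therefore not read as a result. The part of depth in these differences was not tested further.

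Loss of Apoe without P301S was read from EKO against WT. Of 5 genes with enough UMIs, 4 were at least 1.5-fold higher in EKO, beside 15.2% of 5809 genes. Lgals3bp had enough UMIs only through EKO and then had to be higher, so the count describes the genes that could be measured. Gfap was 1.89-fold higher (1.57 to 2.28), Vim 1.94-fold (1.20 to 3.12) and Thbs4 2.54-fold (1.23 to 5.24). Lgals3bp, at 1.54-fold (0.588 to 3.82), and S100a6, at 1.35-fold (0.630 to 2.79), had intervals that include no difference. Serpina3n, Cd44, Osmr and Cxcl10 had at most 6 UMIs in either library. The neuronal RNA in WT nuclei touches this comparison: with mixed nuclei left out 2 of the 5 genes passed 1.5-fold, beside 14.5% of the genes compared there, and the log2 ratio of Gfap was 0.55 in place of 0.92. With equal weight per nucleus neither Gfap (0.46) nor Vim (0.44) passed, and with doublets kept Thbs4 was at 0.58, just under the threshold. Among nuclei of at least 1000 UMIs, 68 in EKO and 262 in WT, Gfap was 2.85-fold (2.32 to 3.49), Vim 2.91-fold (1.70 to 4.92) and Thbs4 2.84-fold (1.14 to 6.75) higher in EKO. Lgals3bp had 3 UMIs in those EKO nuclei, a ratio of 0.981 (0.179 to 3.57).

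**Figure D2:**
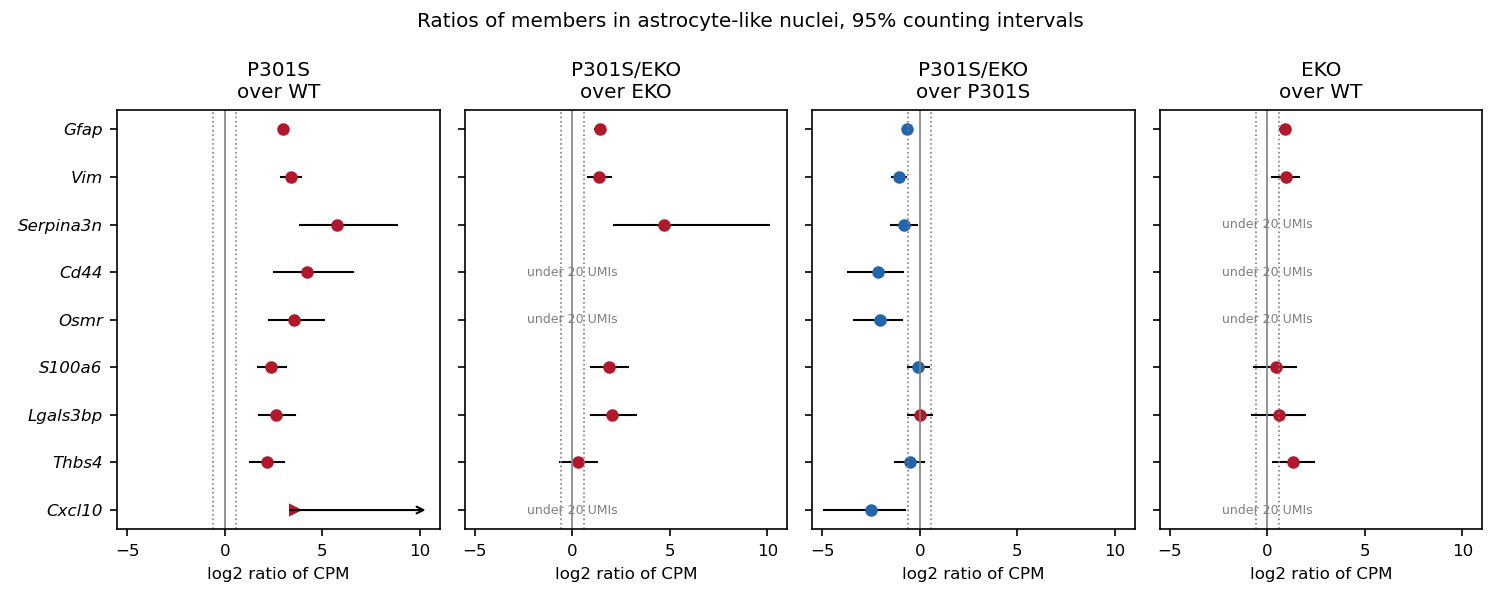
Log2 ratio of CPM (horizontal axis) of the 9 genes in astrocyte-like nuclei for the 4 comparisons; points are ratios of 1 library to 1 library, lines 95% counting intervals, dotted lines the 1.5-fold threshold and the triangle with an arrow a lower bound. All 9 genes lie to the right of the threshold for P301S over WT, 4 of them measured only through P301S. For P301S/EKO over P301S 6 of 9 lie to the left, 3 of them measured only through P301S.

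The share of nuclei in which each gene was detected was then counted. Gfap was detected in 86 of 286 WT astrocyte-like nuclei (30.1%) and 60 of 204 EKO nuclei (29.4%), against 117 of 131 P301S nuclei (89.3%) and 127 of 205 P301S/EKO nuclei (62.0%). Vim was detected in 31, 22, 67 and 46 nuclei in the same order, Serpina3n in 2, 1, 36 and 16, S100a6 in 17, 11, 37 and 29, and Lgals3bp in 13, 9, 37 and 37. Cd44 was detected in 3, 0, 23 and 5 nuclei, Osmr in 6, 2, 25 and 7, Thbs4 in 17, 11, 21 and 18, and Cxcl10 in 0, 1, 8 and 3. Taking 3 nuclei as the floor, the 0 of 204 for Cd44 in EKO allows a share of nuclei with a UMI of up to 1.47%, and the 0 of 286 for Cxcl10 in WT up to 1.05%. These limits hold at the depth of these nuclei and do not bound the share that expresses the gene. A wider gate asked for at least 3 astrocyte markers, and for more of them than of any other non-neuronal marker list. It took 490, 293, 276 and 326 nuclei, and 111, 72, 198 and 163 of them held Gfap. It left out 19, 5, 6 and 4 of the astrocyte-like nuclei. In this gate Cd44 was held by 3, 1, 27 and 6 nuclei, Osmr by 5, 4, 27 and 7, Serpina3n by 8, 3, 49 and 17, and Cxcl10 by 0, 1, 8 and 4. The libraries kept their order for Gfap in both sets, except that WT and EKO, which were close, changed places.

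Shares depend on depth, so nuclei were thinned to equal UMIs. At 500 UMIs per nucleus Gfap was detected in 16.4% of WT nuclei (12.3 to 21.2) and 20.6% of EKO nuclei (15.3 to 26.8), against 67.9% in P301S (59.2 to 75.8) and 44.9% in P301S/EKO (37.9 to 52.0). In the CA1 neuron-like nuclei of the same libraries, which should lack Gfap, the thinned shares were 1.16%, 1.02%, 11.6% and 7.33%, at median depths of 2101, 1639, 2682 and 1764.5 UMIs before thinning. At 1000 UMIs, where 136 EKO and 107 P301S/EKO nuclei were too shallow to enter, the Gfap shares were 22.9%, 36.8%, 80.2% (72.3 to 86.6) and 77.6% (68.0 to 85.4). The CA1 neuron-like shares were then 2.06%, 1.08%, 23.2% (18.1 to 29.1) and 10.6% (8.20 to 13.5), higher in P301S than in P301S/EKO. P301S and P301S/EKO thus lay apart at 500 UMIs and within each other's intervals among the deeper nuclei. Vim was detected in 35.9% of P301S and 26.5% of P301S/EKO nuclei at 1000 UMIs, Serpina3n in 13.7% and 7.14%, and Osmr in 13% and 4.08%. S100a6 (15.3% and 17.3%) and Lgals3bp (14.5% and 14.3%) were detected at close shares, with overlapping intervals for all 5 genes.

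**Figure D3:**
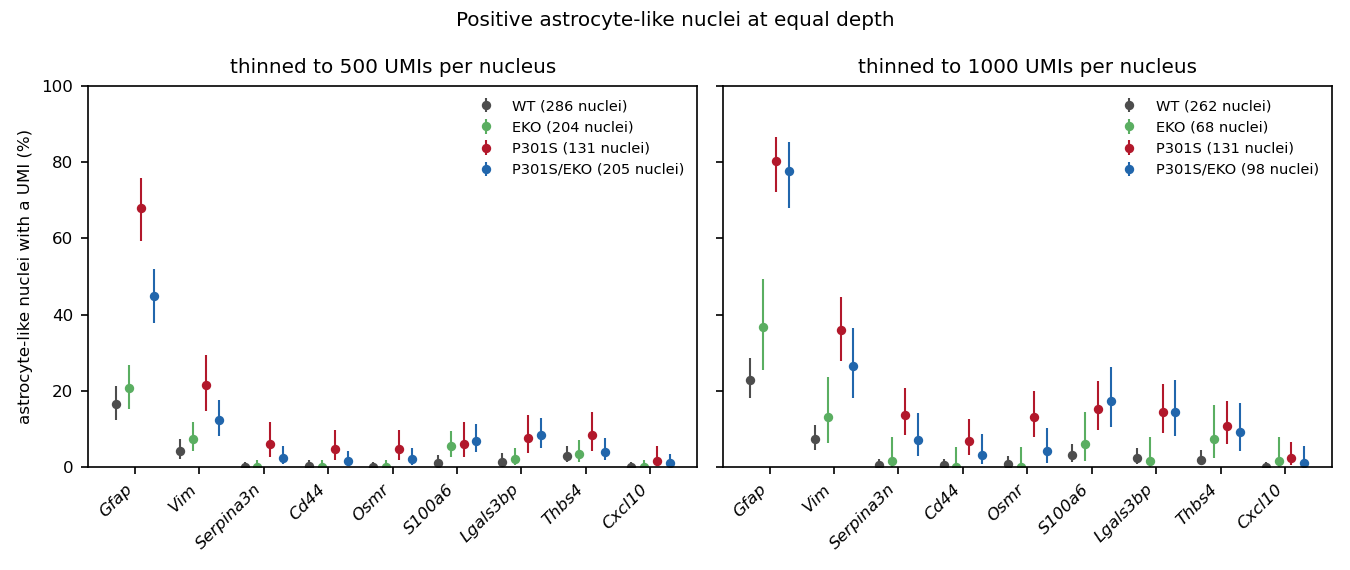
Percent of astrocyte-like nuclei with at least 1 UMI of each gene (vertical axis) after thinning every nucleus to 500 UMIs (left) or 1000 UMIs (right), by library, with exact 95% binomial intervals; nuclei below the depth are left out. The Gfap shares of P301S and P301S/EKO are 67.9% and 44.9% on the left and 80.2% and 77.6% on the right.

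Several of the genes were next counted within the same nucleus. At 500 UMIs, 223 of 286 WT nuclei (78.0%) and 147 of 204 EKO nuclei (72.1%) held none of the 9 genes, against 26 of 131 P301S nuclei (19.8%) and 89 of 205 P301S/EKO nuclei (43.4%). Nuclei with 3 or more of the genes numbered 0 in WT and 4 in EKO, against 12 in each library with P301S. At 1000 UMIs they numbered 36 of 131 P301S nuclei (27.5%) and 23 of 98 P301S/EKO nuclei (23.5%). Vim was found in 10 of 42 Gfap-positive and 5 of 162 Gfap-negative nuclei of EKO, and in 21 of 92 and 4 of 113 of P301S/EKO. In P301S it was in 21 of 89 Gfap-positive and 7 of 42 Gfap-negative nuclei, a smaller gap in the library where most nuclei held Gfap. Lgals3bp did not follow Gfap in P301S/EKO, with 6 of 92 Gfap-positive and 11 of 113 Gfap-negative nuclei. Deeper nuclei can hold more genes before thinning, and these counts, at 500 UMIs, are descriptions of nuclei of 1 library each.

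Across the other classes the 9 genes differed in how far they belonged to astrocytes. With the 4 libraries pooled, astrocyte-like nuclei had the highest CPM of 8 classes for 8 genes, and endothelial-like nuclei for Vim. This order came from the libraries with P301S. Astrocyte-like nuclei were the highest class for 9 of the 9 genes in P301S and 6 in P301S/EKO, but for 4 in EKO and for Gfap alone in WT, where some of the other classes held few nuclei. In WT, Osmr was at 23.9 CPM in endothelial-like nuclei (9 UMIs) against 11.3 CPM in astrocyte-like nuclei, and in EKO at 50.6 CPM (5 UMIs) against 9.05. Lgals3bp in the pooled libraries was at 87.9 CPM in astrocyte-like and 87.3 CPM in fibroblast-like nuclei, which are level. Thbs4 was the most concentrated, with 102 of its 165 UMIs in astrocyte-like nuclei (61.8%). Osmr had 55 of 121 UMIs there and 25 of 121 in endothelial-like nuclei, while its level in neuron-like nuclei was 0.258 to 2.22 CPM. Lgals3bp had 268 of 729 UMIs in microglia-like nuclei (36.8%) and 114 in astrocyte-like nuclei (15.6%).

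Vim in WT was counted mainly in vessel cells. Endothelial-like nuclei held 136 of the 249 WT UMIs (54.6%) and astrocyte-like nuclei 42 (16.9%). In P301S the order was the opposite, with 123 of 585 UMIs (21.0%) in endothelial-like and 245 (41.9%) in astrocyte-like nuclei. The endothelial level itself was 361 CPM in WT and 598 CPM in EKO, then 675 CPM in P301S and 452 CPM in P301S/EKO, a ratio of 1.87 for P301S over WT (1.46 to 2.41) where astrocyte-like nuclei had 10.4.

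In microglia-like nuclei Lgals3bp was at 11.1 CPM in WT (5.55 to 19.9), 18.3 in EKO (6.73 to 39.9), and 115 CPM in P301S (98.1 to 134) beside 104 CPM in P301S/EKO (83.8 to 128). Its ratio was 10.4 for P301S over WT (5.64 to 21.2) and 5.70 for P301S/EKO over EKO (2.52 to 15.9). P301S/EKO and P301S did not separate (1.10-fold lower, 0.847 to 1.45), as in astrocyte-like nuclei. Neuron-like nuclei held Lgals3bp at 4.79, 3.23, 14.9 and 12.3 CPM, well below microglia-like nuclei of both P301S libraries.

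Serpina3n was found in neurons of every library. Neuron-like nuclei held 80 of its 105 UMIs in WT and 56 of 62 in EKO, and 54.9% of the UMIs of the 4 libraries together. They were also 79.2% of all WT nuclei and 85.6% of all EKO nuclei. By level, with the 4 libraries pooled, neuron-like nuclei were the lowest of the 8 classes for Serpina3n. This pooled order did not hold within single libraries. In WT neuron-like nuclei were above astrocyte-like nuclei, and in EKO they were the second highest of 7 classes at 7.23 CPM. CA1 neuron-like nuclei of WT were at 20 CPM (13.9 to 27.8) and those of EKO at 11.2 CPM, P301S was at 14.9 and P301S/EKO at 17.5. P301S and WT did not separate there (1.34-fold lower, 0.651 to 3.04), while in all neuron-like nuclei Serpina3n was 1.85-fold higher in P301S (1.35 to 2.55). In oligodendrocyte-like nuclei Serpina3n was at 8.21 CPM in WT (8 UMIs), 6.07 in EKO (2 UMIs), and 71.0 CPM in P301S (29 UMIs, 47.5 to 102) beside 23.6 CPM in P301S/EKO (12 UMIs, 12.2 to 41.2). The ratio for P301S over WT there was 8.64 (3.85 to 21.9), and the step from P301S to P301S/EKO was 3.01-fold down (1.49 to 6.47).

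Most Cd44 UMIs also came from neuron-like nuclei where P301S was absent, 23 of 29 in WT (79.3%) and 29 of 30 in EKO (96.7%, 82.8 to 99.9). Neuron-like nuclei were 79.2% of all WT nuclei and 85.6% of all EKO nuclei. By level, Cd44 in WT was highest in oligodendrocyte precursor-like (5.93 CPM, 1 UMI) and astrocyte-like nuclei (5.67 CPM). In EKO it was highest in fibroblast-like nuclei (16.1 CPM, 1 UMI), then neuron-like nuclei (3.74 CPM). A single excitatory cluster, led by Cux2 and Vwc2l, held 50 of the 174 Cd44 UMIs of the 4 libraries. In this cluster Cd44 was at 9.37 CPM in WT (5.12 to 15.7), 20.8 in EKO (12.3 to 32.9), 13 in P301S (6.91 to 22.2) and 4.96 in P301S/EKO (1.61 to 11.6). CA1 neuron-like nuclei held 1 Cd44 UMI over the 4 libraries.

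Gfap was counted in every class of P301S. It was at 232 to 342 CPM in the named neuronal classes, 337 in microglia-like and 264 in oligodendrocyte precursor-like nuclei. It was higher in choroid plexus epithelium-like (512, 364 to 701), fibroblast-like (561, 414 to 744) and endothelial-like nuclei (1236, 1079 to 1408). In WT the neuron-like level was 19.2 CPM (16.4 to 22.3) and in P301S 264 CPM, 13.8-fold higher (11.8 to 16.3). Among the neuronal classes, which should lack Gfap, the spread in WT and EKO was wider than in P301S as a fold, but narrower in CPM. In WT it ran from 10.9 CPM in CA2 or CA3 neuron-like (6.47 to 17.3) to 27.5 CPM in dentate granule neuron-like nuclei (18.3 to 39.7). In EKO it ran from 7.58 (3.64 to 13.9) to 25.0 CPM (18.0 to 33.8) in the same classes. From P301S to P301S/EKO, Gfap was lower 2.29-fold in neuron-like (2.10 to 2.50), 2.07-fold in microglia-like (1.71 to 2.52) and 4.15-fold in endothelial-like nuclei (2.78 to 6.44). The part of free RNA in these levels was not tested beyond the subtraction that follows. With an estimate of free RNA subtracted, Gfap in astrocyte-like nuclei was higher in P301S than in WT by 2.56 on the log2 scale, beside 2.96 without subtraction. Cxcl10 had 60 UMIs over all classes and libraries, 24 in astrocyte-like, 15 in microglia-like and 13 in neuron-like nuclei. None of the 60 came from WT, and in P301S/EKO 9 of 20 came from neuron-like nuclei.

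Outside astrocytes the count of genes past 1.5-fold was small, because few were measured. In microglia-like nuclei 5 of 5 measured genes were higher in P301S than in WT (background 19.1%), 3 of them measured only through P301S, and 2 of 2 in P301S/EKO against EKO (15.2%), while 3 of 5 were lower from P301S to P301S/EKO (19.5%). Those 3 were Gfap, Vim (4.18-fold, 2.06 to 9.56) and Serpina3n (1.90-fold, 1.04 to 3.66). In oligodendrocyte-like nuclei 2 of 2 were higher for P301S over WT (14.4%), of which Serpina3n was measured only through P301S. There 3 of 3 were lower for P301S/EKO over P301S (16.8%), of which Lgals3bp was measured only through P301S. Of these 3, 2 had an interval that excludes no difference. In endothelial-like nuclei 4 of 4 were higher for P301S over WT (16%), with S100a6 at 2.28-fold (1.19 to 4.40) and Lgals3bp at 2.51-fold (1.31 to 4.87). There 2 of 4, Gfap and S100a6, were lower for P301S/EKO over P301S (16.3%). For P301S/EKO over EKO none of 3 was higher, with a median log2 ratio of -0.40. S100a6, measured only through EKO, was lower there (1.71-fold, 0.633 to 5.05, background 15.9%). For EKO over WT, endothelial Gfap (2.22-fold, 1.30 to 3.72), Vim (1.66-fold, 1.20 to 2.26) and S100a6 (2.48-fold, 1.13 to 5.24) were higher (16.2%). Lgals3bp, measured only through WT, was lower with 3 UMIs in EKO (19.0%).

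**Figure D4:**
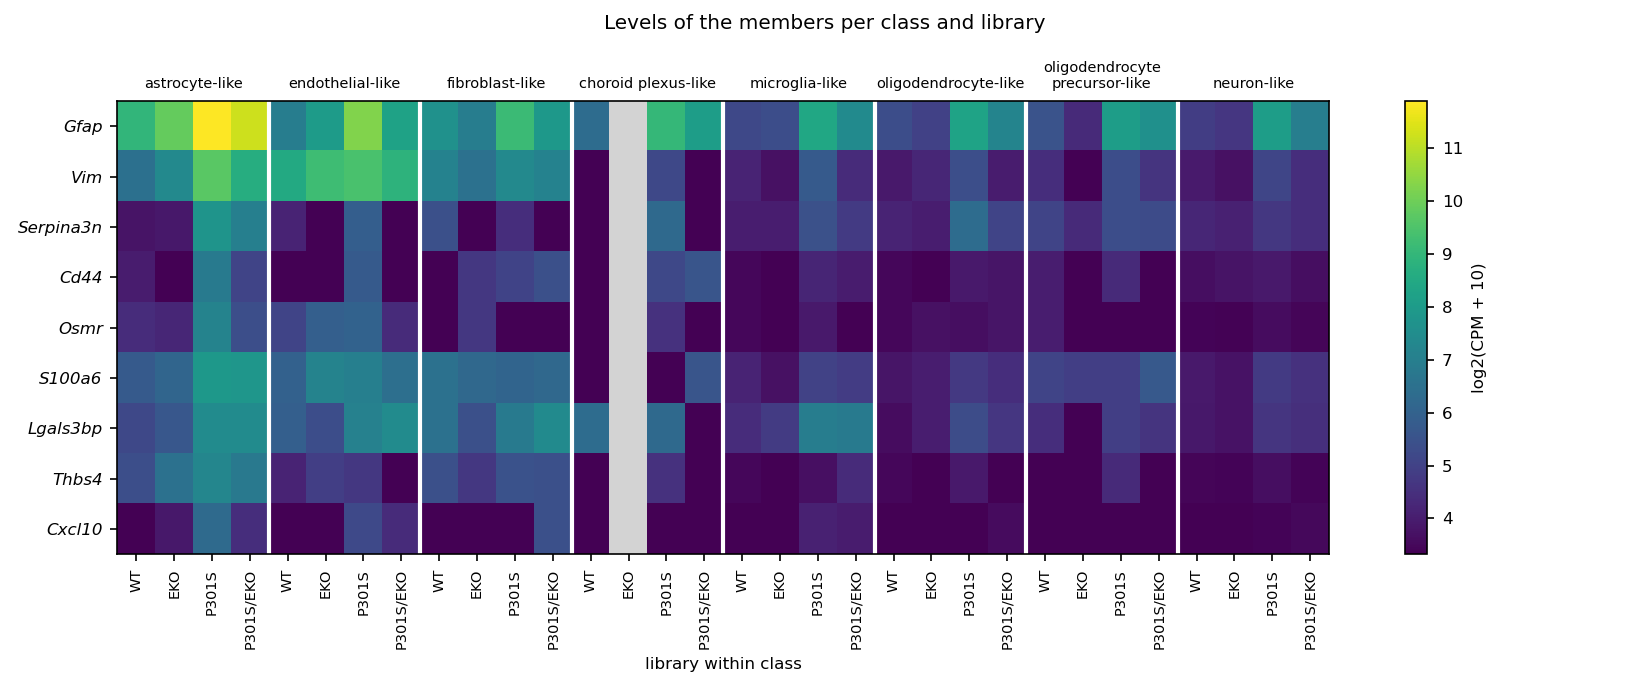
Log2(CPM + 10) of the 9 genes (rows) in 8 classes of nuclei, with the 4 libraries as columns within each class; grey marks a library with no nucleus of the class. The brightest cells are Gfap in P301S and P301S/EKO astrocyte-like nuclei (3794 and 2422 CPM), and Vim is bright in endothelial-like nuclei of all 4 libraries (361 to 675 CPM).

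Genes of the same pathways and families were examined in astrocyte-like nuclei with the same threshold. For P301S over WT, 24.8% of all genes were higher and 16.1% lower, and the counts below are read against these shares. For P301S/EKO over P301S the shares are 12.1% higher and 19.7% lower. A gene with few UMIs in WT could reach the minimum of 20 only by being high in P301S, and then had to be higher, so the number of such genes is given with each list. In the list of gp130, JAK and STAT signalling, to which Osmr belongs, 10 of 18 genes had enough UMIs for P301S over WT, of which 6 were at least 1.5-fold higher and 1 lower, and 4 were measured only through the library where they were higher. Socs3, the feedback inhibitor of this pathway, had 28 UMIs in P301S (94.6 CPM) and 2 in WT (3.78 CPM), 25.0-fold higher (6.31 to 217). The immediate early genes Fos (8.04-fold, 3.25 to 23.8) and Junb (5.02-fold, 3.17 to 8.18) were also higher. Each was lower in P301S/EKO than in P301S, Fos 7.63-fold (2.35 to 39.3), Socs3 5.94-fold (2.08 to 23.3) and Junb 4.76-fold (2.62 to 9.37). Fos and Socs3 reached 20 UMIs there only through P301S and then had to be lower. Of 9 genes of the list measured for P301S/EKO over P301S, 4 were lower and 3 higher. Of the 9, 3 were measured only through the library where they were higher. The ligand Osm itself had 0 UMIs in astrocyte-like nuclei of the 4 libraries.

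Of 12 genes known from neurotoxic-type (A1) reactive astrocytes, 6 were measured for P301S over WT, 5 of them only through P301S, so nothing is read from the count of higher genes. The complement gene C3 had 28 UMIs in P301S (94.6 CPM) and 0 in WT, Gbp2 was 17.0-fold higher from 2 WT UMIs (4.10 to 150.3) and the complement inhibitor Serping1 12.1-fold higher (4.20 to 47.4). Of 12 injury-repair-type (A2) genes 2 were measured, both only through P301S, S100a10 at 10.0-fold (3.82 to 33.2) and Tm4sf1 at 5.76-fold (2.65 to 13.8). For P301S/EKO over P301S, 7 A1 genes were measured, 4 of them only through 1 library, with 4 lower, 1 higher and 2 within 1.5-fold. C3 was 5.94-fold lower (2.08 to 23.3), Serping1 3.82-fold (1.54 to 11.3) and Gbp2 2.69-fold (1.03 to 8.22), while H2-T23 was 1.57-fold higher with an interval that includes no difference (0.818 to 3.07). Of the A2 genes S100a10 was 2.37-fold lower (1.12 to 5.48) and Tm4sf1 1.76-fold (0.899 to 3.60).

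The list of other disease-associated astrocyte genes had 17 of 18 genes measured, 13 higher and 1 lower for P301S over WT, and each would have reached 20 UMIs at the lower of its levels too. The complement gene C4b was at 147 CPM in WT and 335 CPM in EKO, and at 990 CPM in P301S and 797 CPM in P301S/EKO. Its ratio was 6.71 for P301S over WT (5.21 to 8.73), 2.38 for P301S/EKO over EKO (1.81 to 3.15) and 2.27 for EKO over WT (1.63 to 3.16). For P301S/EKO over P301S, 2 of the 17 were higher (background 12.1%) and 1, the actin-severing gene Gsn, was lower (1.62-fold, 1.21 to 2.20, background 19.7%). Of 12 interferon genes listed beside Cxcl10, 5 were measured for P301S over WT, 2 of them only through P301S, and 4 were higher, among them B2m at 6.69-fold (4.67 to 9.79) and Bst2 at 13.1-fold from 3 WT UMIs (3.94 to 68.4).

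Partners of the 9 genes were mixed. Of 7 S100 and annexin genes measured for P301S over WT, 6 were higher, 1 of them measured only through P301S, with S100a1 at 4.28-fold (2.71 to 6.91). Of 6 filament and linker genes 3 were higher, with Lmna, which encodes the nuclear lamins A and C, at 2.11-fold with 26 UMIs in P301S and 22 in WT. Of 6 Cd44 ligands and partners 2 were higher, Spp1 (osteopontin) at 8.49-fold (2.82 to 34.3, measured only through P301S) and the membrane linker Ezr at 2.12-fold (1.29 to 3.51), while the matrix proteoglycan Bcan was 1.27-fold lower (1.10 to 1.46). Of 9 galectins and thrombospondin partners 6 were higher and 1 lower, with 2 measured only through P301S. Lgals3, the galectin that Lgals3bp binds, had 1 UMI in WT, 22 in P301S (74.3 CPM) and 1 in P301S/EKO, 18.7-fold lower than in P301S (3.02 to 770). Lgals3 and Spp1 are also known as microglial genes, and the microglia marker sums of these nuclei are those given above. Of the other pan-reactive genes, 3 of 7 were measured for P301S over WT, each only through P301S, and Aspg was at 9.53-fold (3.93 to 27.9).

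The genes with the pattern most like each filament gene and Serpina3n were sought over 49 class-by-library units of at least 30 nuclei, among 8361 genes, by the Pearson correlation of log2(CPM + 10). These units share libraries and depth, so the values are descriptions. Gfap was most like Mt1 (0.93), Mt2 (0.90), Mt3 (0.89), Fxyd1 (0.85) and C4b (0.85), the first 3 being metallothioneins. Vim was most like Ifitm3 (0.93), Ftl1 (0.93) and Gnai2 (0.92). Serpina3n had no close match, with Emc8 at 0.67, Slc39a14 at 0.64 and Ddr1 at 0.60. Among the 9 genes, Vim correlated with S100a6 at 0.90 and with Serpina3n at 0.27.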

How the data were processed

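Nuclei from pooled hippocampi were profiled by droplet 3′ RNA sequencing, and the 4 deposited matrices of UMI counts, not normalized, were used. The submitters' processing notes name Cell Ranger, Seurat and the mm10 build, with no versions, and do not say whether intronic reads were counted. Barcodes had to have 200 genes or more and 5% mitochondrial counts or less. Scrublet, run through scanpy 1.11.5, made 0 doublet calls in each library, so the highest scores, 0.8% per 1000 barcodes, were removed, which left 18677 nuclei. Leiden clustering at resolution 1 gave 18 clusters. The 9 genes, Apoe, 2 other genes linked to the models and the mitochondrial and sex-linked genes were kept out of it. Classes were named from marker lists, and 1 cluster of 1182 nuclei stayed unnamed and was counted as neuronal.

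Counts were summed per class and library. Levels have exact Poisson intervals, ratios exact conditional binomial intervals and shares Clopper-Pearson intervals, all at 95%. A ratio was read with at least 20 UMIs over both libraries and called at 1.5-fold, and a count of 0 was bounded with 3 counts per library. The intervals were checked on simulated data. The named genes were the 9 members, Apoe, up to 3 genes per list and comparison with the largest log2 ratio whose interval excluded 1, and the genes most like Gfap, Vim and Serpina3n. Osm, Ttr and the genes leading clusters were named after their values were seen. The members and lists were chosen with earlier results of these data known. Alternatives covered scaling, depth, doublets, resolution, a marker gate, weighting, free RNA, mixed nuclei and the minimum of UMIs.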

Additional observations from a re-analysis of the deposited data

How the results depend on the processing

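Of the 96 counts of genes past 1.5-fold under the alternatives, 91 stayed within 1.5 times the value given above, 44 of 48 medians and 303 of 332 single ratios stayed within the counting interval of that value, and none of the called ratios with enough UMIs changed sign. Median-of-ratios scaling moved the median log2 ratio for P301S over WT from 3.36 to 3.18. For P301S/EKO over P301S the median log2 ratio was -0.46 with at least 1000 UMIs per nucleus, -1.41 with equal weight per nucleus, and -0.44 with at least 1000 UMIs and mixed nuclei left out. The count of genes higher in EKO than in WT was 2 with free RNA subtracted and 2 with mixed nuclei left out, in place of 4. In nuclei without a microglia marker UMI, where 5 genes could be measured, 5 genes were higher for P301S over WT in place of 9, and the median for P301S/EKO over EKO was 0.95. With no minimum of UMIs, 8 genes were higher for P301S/EKO over EKO in place of 5, and 1 was lower for EKO over WT in place of 0. The alternatives on microglia markers and on depth together with mixed nuclei were chosen after seeing the data. Where these alternatives hold fewer nuclei or genes, counting error is larger; otherwise the cause was not tested. No paired analysis was possible because each genotype had 1 library and the labels carry no replicate numbers.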
